A study of Mus musculus with 3 samples.

Results

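The 9 genes described here encode procoagulant, anticoagulant and fibrinolytic proteins of the vessel wall: Vwf, F8 and F3, then Tfpi, Thbd and Procr, then Plat, Plau and Plaur. The list was drawn up by function, with earlier results of these data known, and all 9 had a probeset of their own among the 19938 genes that the array measured in this way. Each of the 9 had 1 such probeset. Expression was measured on Affymetrix Mouse Gene 1.0 ST arrays in 3 samples of GFP-positive cells sorted from the renal cortex of adult Tie2-GFP mice, the transgenic line Tg(TIE2GFP)287Sato on a mixed, primarily CD-1 background, with sex given as unknown. In this line GFP follows the Tie2 (Tek) promoter, which is used by endothelial cells and also by some blood cells. Each sample came from 1 kidney, and the samples are called replicates 1, 2 and 3. Medulla was cut away and glomeruli were held back on a 40 µm mesh, after 5 min in 1% collagenase. There was 1 group and no untreated or other control group, so each gene was set against a signal of 100 (log2 6.64), the minimum raw level of the study's own filter.

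Blood does not clot on healthy endothelium because the wall keeps thrombin formation in check and dissolves fibrin. Tissue factor (F3) starts coagulation together with factor VII, factor VIII (F8) speeds the making of factor Xa, and von Willebrand factor (Vwf) binds platelets and carries factor VIII in plasma. Tissue factor pathway inhibitor (Tfpi) blocks the start, while thrombomodulin (Thbd) and the endothelial protein C receptor (Procr) together turn thrombin toward activation of the anticoagulant protein C. Tissue-type (Plat) and urokinase-type (Plau) plasminogen activators make plasmin, the enzyme that cuts fibrin, and Plaur is the receptor that holds urokinase at the cell surface.

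The cells carried the markers of their label. All 10 genes of an endothelial list were above 100, among them Pecam1, Cdh5, Kdr and Flt1, and their summed signal ran from 9857 to 12167 between samples. Of the lists for blood cells that could bring in clotting genes, 0 of 7 measured platelet genes were above 100 by limma (summed signal 345 to 364) and 0 of 8 macrophage genes (273 to 290), and in both lists 0 were so at an unadjusted p under 0.05. All of these platelet and macrophage genes were below 100, including Pf4, Ppbp, Itga2b and Gp5, and Cd68, Csf1r, Adgre1 and Itgam. Over all genes of the array 22.9% were above 100 and 65.0% below. Genes of the proximal tubule were present, with 7 of 8 above 100 and a summed signal of 6688 to 8459, including Lrp2, Cubn and Slc34a1. The paper reads the proximal tubule genes in its cortical endothelial cells as a minor contamination. In the lists for other parts of the nephron, 2 of 4 genes of the thick ascending limb, 2 of 6 of the distal tubule and collecting duct and 1 of 4 of the podocyte were above, the last being Podxl, which endothelium also expresses. Of 8 smooth muscle and pericyte genes 1 was above (Rgs5) and 3 were below. At an unadjusted p under 0.05, or with the median SD of other probesets given to those of equal values, 3 of these 8 were above, with Acta2 and Myh11 added, and the summed signal was 1671, 1678 and 3552 in replicates 1, 2 and 3. The part of these cells in the levels below was not tested. In bulk samples, fewer cells of a type and less RNA per cell cannot be told apart.

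Of the 9 genes, 5 were above a signal of 100 by the one-sided moderated test of limma (adjusted p under 0.05 over all 35557 probesets), which were F8, Thbd, Procr, Plat and Plau. Over all 19938 genes 22.9% were above. F3 and Vwf were below 100, as were 65.0% of all genes, and Tfpi and Plaur were neither. Without replicate 1 the number above was 3, and without replicate 2 it was also 3. The median of the 9 means lay 0.81 above the limit on the log2 scale, and the median of all genes lay 0.76 below it (a difference from the limit of -0.76). The same 5 genes reached the limit in replicates 1, 2 and 3 alike. Levels are compared here with the limit and between samples of the same gene, since the signals of different probesets share no scale.

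**Figure D1:**
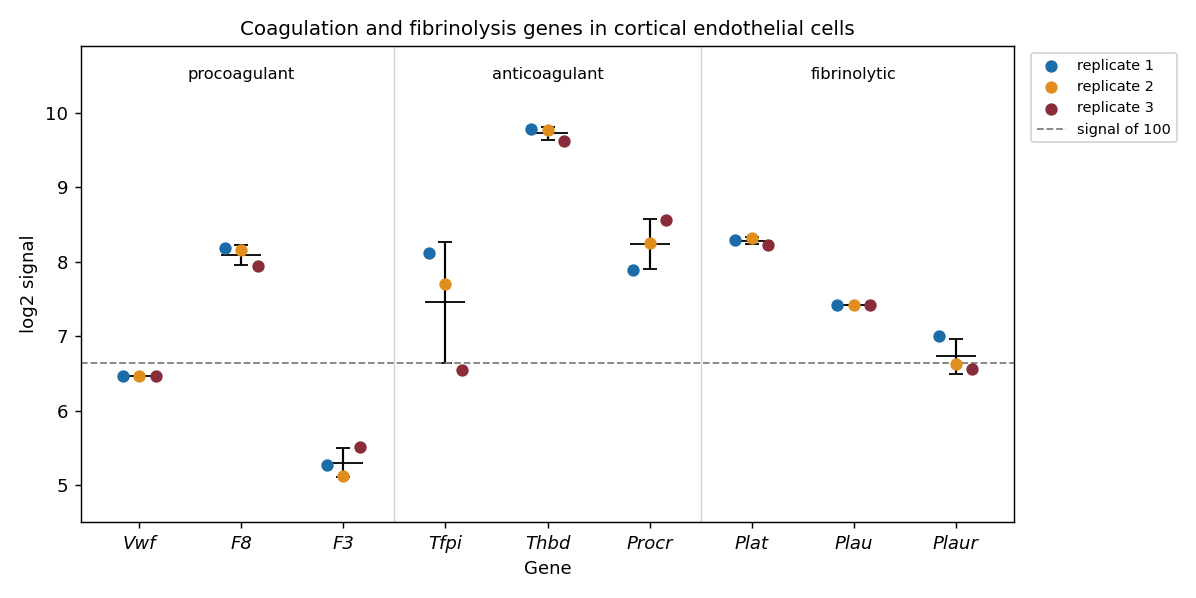
Log2 signal of the 9 genes (vertical axis) in replicates 1, 2 and 3 (coloured points), with the mean (long bar) and SD (whiskers, n = 3), against a signal of 100 (dashed line). Thbd, Plat, F8, Procr and Plau lie above the line in every sample, F3 and Vwf below it in every sample, and Tfpi and Plaur on both sides, and heights can be compared with the line and within a gene, not between genes.

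Among the procoagulant genes, F8 was above the limit. Replicate 1 gave a log2 signal of 8.19, replicate 2 gave 8.16 and replicate 3 gave 7.94, which average 8.10 ± 0.13 (SD, n = 3; limma adjusted p = 0.00448). The mean was 2.74-fold the limit and the 3 samples lay close together. The adjusted p was 0.0716 without replicate 1 and 0.0787 without replicate 2, so that the call needed both of these samples. Factor VIII circulates bound to von Willebrand factor, and its release from the cell depends on the cargo receptor pair Lman1 and Mcfd2. Lman1 was above 100, at 8.82 ± 0.07 (SD, n = 3; limma adjusted p = 0.000583). Mcfd2 had 6.75 ± 0.06 and was neither above nor below (limma adjusted p = 0.158, tested above 100).

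Vwf, often used as an endothelial marker, lay just under the limit. Every sample held a log2 value of 6.46, equal in all 5 deposited decimals, which is a signal of 88.1. It was called below 100 (limma adjusted p = 5.34e-07), but this p comes from an SD of 0 and became 0.14 once the median SD of the other probesets was used for such cases. Such equal values were common, in 51.2% of all genes and in Vwf and Plau among the 9. Different genes could also share a value, such as Serpind1 and C1qa, both at 5.70192 in every sample. How these values arose is not stated in the sources used here and was not tested. An SD of 0 is therefore not read as a measured spread between samples. Of the genes for the storage granule of von Willebrand factor and its trafficking, Cd63, a membrane protein of these granules and of other late endosomal organelles, was above 100 at 12.64 ± 0.05 (limma adjusted p = 3.12e-05). Rab27a, a small GTPase of granule transport, had 5.77 in each sample and was below (limma adjusted p = 3.11e-09, or 0.00233 with that median SD). Its partner Myrip had 6.71 ± 0.14 and was neither. Adamts13, the protease that cuts von Willebrand factor, was below 100 at 5.44 in each sample, as was the scavenger receptor gene Stab2 at 5.49. Arterial and venous genes were measured in the same sorts. Efnb2, Gja4, Gja5 and Sox17 of the arterial list were all above 100, with 5 of 7 above in that list, and so were all 3 measured venous genes, Nr2f2, Ephb4 and Aplnr. Over all genes 22.9% were above.

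F3, the gene of tissue factor, was clearly below the limit. Replicates 1, 2 and 3 gave 5.26, 5.12 and 5.51 on the log2 scale, a mean of 5.30 ± 0.20 (SD, n = 3; limma adjusted p = 0.00336). The limit was 2.54-fold this mean, and no sample came near it. F3 stayed below 100 with each replicate left out in turn (limma adjusted p = 0.0244 to 0.0445). Tissue factor is a gene that many cells switch on within hours of injury or cytokines, through factors that include the Fos and Jun proteins (AP-1).

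Of the promoter windows at hand, those of F3, Procr and Plaur held the letters TGANTCA, which Fos and Jun proteins bind, and only these are shown. These 3 genes lay below, above and at the limit, and F8, also above it, had a window without the letters. RefSeq windows (build GRCm38.p6) were at hand for 5 of the 9 genes (F3, Procr, Plaur, F8 and Tfpi), with 6 windows in all. Each sequence is the 250 bases before the start site that RefSeq gives for the window, on the gene's own strand, with TGANTCA in capitals.
F3, chr3:121723287-121723536, plus strand: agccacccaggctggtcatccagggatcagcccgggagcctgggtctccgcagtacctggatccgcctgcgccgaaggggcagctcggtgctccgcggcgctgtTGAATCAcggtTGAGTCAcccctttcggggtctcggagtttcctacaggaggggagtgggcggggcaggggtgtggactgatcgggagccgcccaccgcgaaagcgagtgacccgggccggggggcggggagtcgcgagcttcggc
Procr, chr2:155750967-155751216, plus strand: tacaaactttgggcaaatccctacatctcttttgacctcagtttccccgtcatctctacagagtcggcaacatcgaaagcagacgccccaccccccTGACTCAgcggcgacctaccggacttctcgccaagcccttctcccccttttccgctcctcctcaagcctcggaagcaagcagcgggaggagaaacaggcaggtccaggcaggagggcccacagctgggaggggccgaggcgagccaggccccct
Plaur, chr7:24462233-24462482, plus strand: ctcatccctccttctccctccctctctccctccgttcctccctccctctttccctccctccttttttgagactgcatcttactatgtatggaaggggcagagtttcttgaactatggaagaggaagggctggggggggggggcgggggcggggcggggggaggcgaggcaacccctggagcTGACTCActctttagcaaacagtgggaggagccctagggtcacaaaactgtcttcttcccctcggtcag

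F3 held 2 matches, which began 146 and 135 bases before the start, Procr held 1 at 154 bases and Plaur 1 at 69 bases. TGANTCA reads the same on both strands, and it occurred in 6.75% of the 32851 windows of this length in the RefSeq table. The F8 window and both Tfpi windows did not hold these letters. GGGCGG, the GC box, searched on both strands, was in the F3 and Plaur windows and in both Tfpi windows, and in 32.7% of all windows. GGAAGT, a core of ETS factor sites, also searched on both strands, was in both Tfpi windows and in 19.7% of all windows. Such a match is a description of the letters, and the array does not measure binding.

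Among the anticoagulant genes, Thbd stood well above the limit in every sample. Thrombomodulin log2 signals were 9.78, 9.77 and 9.63 in replicates 1, 2 and 3 and averaged 9.73 ± 0.09 (SD, n = 3; limma adjusted p = 0.000443). The mean was 8.48-fold the limit, and the highest sample was 1.11-fold the lowest. Thbd was above 100 with each replicate left out (limma adjusted p = 0.00566 to 0.0234).

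Procr, which presents protein C to the thrombin and thrombomodulin complex, was above 100 but varied more. On the log2 scale replicate 1 had 7.89, replicate 2 had 8.25 and replicate 3 had 8.56, for an average of 8.24 ± 0.33 (SD, n = 3; limma adjusted p = 0.0222). All 3 samples were over the limit, and the mean was 3.02-fold the limit. The call was lost with any replicate left out, with an adjusted p of 0.0822 without replicate 1, 0.193 without replicate 2 and 0.171 without replicate 3.

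Tfpi differed most between the samples. Replicate 1 had a log2 signal of 8.12, replicate 2 had 7.70 and replicate 3 had 6.55, so that replicates 1 and 2 were over the limit and replicate 3 was just under it. The average of 7.46 ± 0.81 (SD, n = 3) did not pass the test for a level over 100 (limma adjusted p = 0.37). The range of 1.57 on the log2 scale is a 2.97-fold difference between the highest and the lowest sample. Of the 6127 genes with a mean of 100 or more, 9.6% had a range over 1 and 3.13% had a range at least as large as that of Tfpi. The range was 1.51 after quantile normalization and 1.53 with the columns shifted to the same median.

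**Figure D2:**
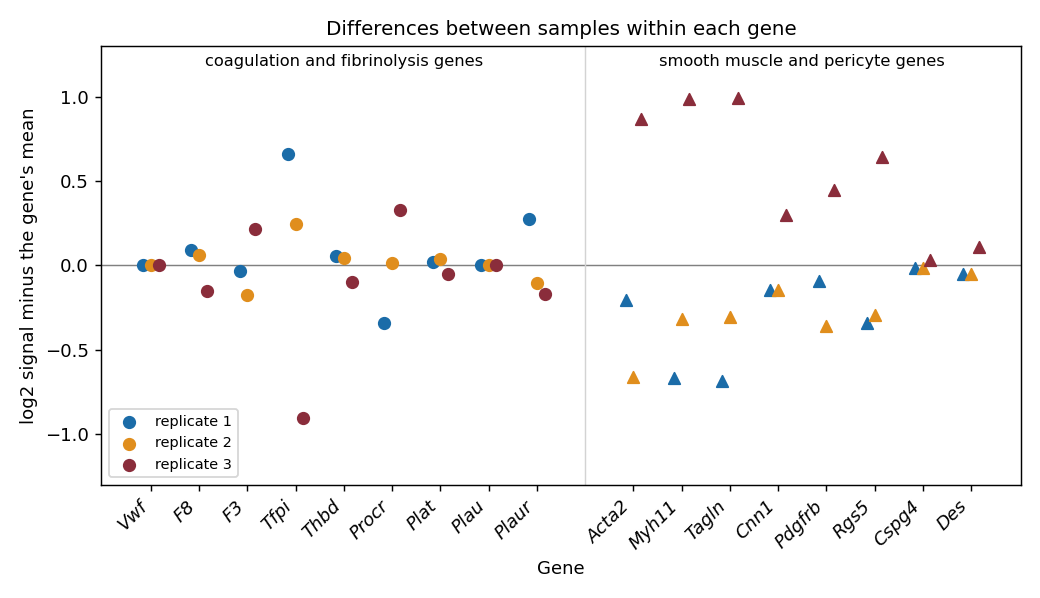
Log2 signal minus the gene's own mean (vertical axis) in replicates 1, 2 and 3 for the 9 genes (circles) and for 8 smooth muscle and pericyte genes (triangles). Tfpi spans 1.57, from replicate 1 at the top to replicate 3 at the bottom, Procr runs the other way over 0.67, and all 8 smooth muscle and pericyte genes are highest in replicate 3.

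The samples did not order the genes alike. Of the 6 genes with unequal values and a mean of 100 or more, 5 were lowest in replicate 3 (F8, Tfpi, Thbd, Plat and Plaur) and Procr was highest there, as was F3 among the genes under 100. Among all 4443 such genes of the array, 34.3% were lowest in replicate 3 alone. Genes whose lowest value was shared between samples stay among the 4443 but count for no replicate. The 6 genes held no such ties, so 34.3% is too low a share to set against them. Of those of the 4443 with a single lowest sample, 771, 1169 and 1525 were lowest in replicates 1, 2 and 3. The median log2 signal over all probesets was also lowest in replicate 3, at 5.66 against 5.70 in replicates 1 and 2. These counts were not recomputed after quantile normalization. After quantile normalization Plat was lowest in replicate 1, at 8.26 against 8.27 in replicate 3, and the other 4 were still lowest in replicate 3. Apart from Tfpi, the ranges were 0.67 for Procr, 0.44 for Plaur, 0.39 for F3, 0.24 for F8, 0.16 for Thbd and 0.09 for Plat on the log2 scale, and the median range of the 4443 genes was 0.34. Replicate 3 also held the highest smooth muscle and pericyte signal in all 8 genes of that list, such as Acta2 (8.43, 7.97 and 9.50 in replicates 1, 2 and 3) and Myh11 (7.79, 8.14 and 9.44). Of the 9 endothelial marker genes with unequal values, 5 were lowest in replicate 3 as well, and the summed signal of that list was 11677, 12167 and 9857 in replicates 1, 2 and 3. Such a sum is led by the strongest probesets, such as Emcn (11.56, 11.96 and 11.17). Kdr also fell (9.72, 9.70 and 8.79), but Pecam1 and Cdh5 had ranges of 0.035 and 0.007, Flt1 was equal and Tie1 was highest in replicate 3. The median deviation of the list from the gene means was -0.035 in replicate 3, about the size of the gap between the array medians (5.66 against 5.70). After quantile normalization Pecam1 was highest in replicate 3 (10.06, 10.07 and 10.10 in replicates 1, 2 and 3). Kdr, Tek, Emcn and Egfl7 were still lowest there. The glomerular endothelial genes Ehd3 and Tbx3 were lowest in replicate 3, and the summed signal of their list of 4 was 622, 516 and 387 in replicates 1, 2 and 3. The other genes of that list did not follow, with Sema5a at 6.78 in every sample and Gata5 at 5.56, 5.68 and 5.56. The lower sum in replicate 3 than in replicate 1 thus came from Ehd3 and Tbx3. Tubule genes were low in another sample. As deposited, all 7 proximal tubule genes with unequal values were lowest in replicate 2. The summed signal of that list was 8459, 6688 and 8236 in replicates 1, 2 and 3. Of the 4 thick ascending limb genes 3 were lowest in replicate 2, with sums of 3209, 1797 and 2978. The part of these cells in the spread of Tfpi and Procr was not tested.

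Of the fibrinolytic genes, Plat was above the limit with little spread. The log2 signal of tissue-type plasminogen activator was 8.30, 8.32 and 8.23 in replicates 1, 2 and 3 and averaged 8.28 ± 0.05 (SD, n = 3; limma adjusted p = 0.000459). The mean was 3.11-fold the limit, and the highest sample was 1.06-fold the lowest. Plat was above 100 with each replicate left out (limma adjusted p = 0.0131 to 0.0259).

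Plau was at 7.42 on the log2 scale in every sample, a signal of 171. It was above 100 (limma adjusted p = 1.72e-06), and still so once it took the median SD of unequal probesets (adjusted p = 0.0122). Urokinase is also made by the kidney tubule, whose genes were present in these sorts as described above, and the part of tubular cells in the Plau level was not tested.

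Plaur, the urokinase receptor, lay at the limit. Replicates 1, 2 and 3 had log2 signals of 7.001, 6.62 and 6.56, averaging 6.73 ± 0.24 (SD, n = 3), so that 1 sample was over the limit and the others just under it. Neither test passed (limma adjusted p = 1 for above and 0.985 for below). Macrophages also carry this receptor, and their part in the Plaur level was not tested.

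**Figure D3:**
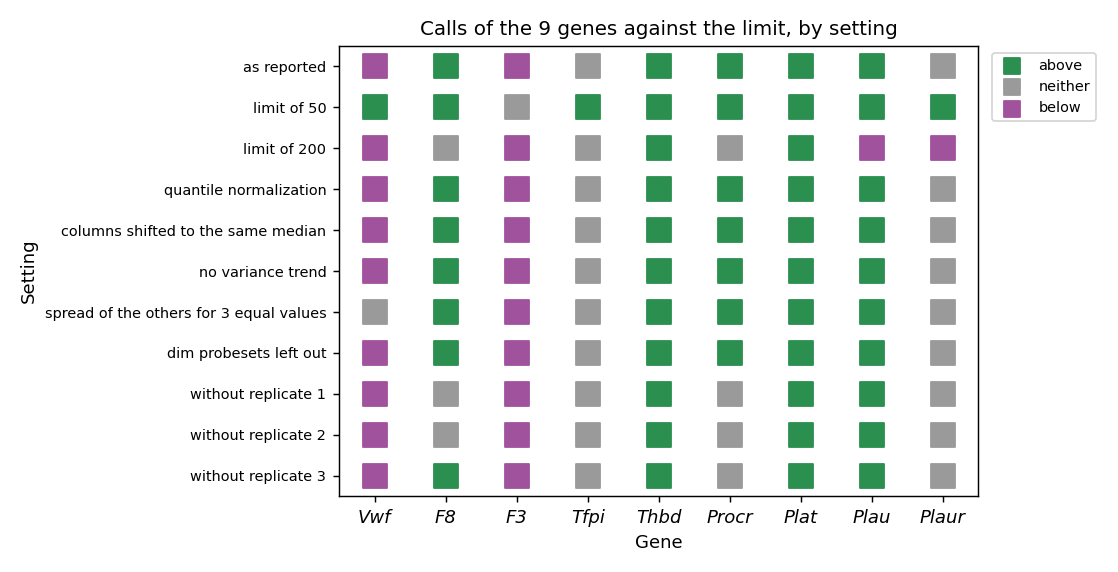
Call of each of the 9 genes (horizontal axis) as above, below or neither against the limit, as reported and under 10 other settings (vertical axis). Thbd and Plat are above under every setting shown, and F8, Procr, Plau, Plaur, Tfpi, Vwf and F3 change under at least 1 of them.

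The wider pathway was examined in 6 lists with 55 other genes, of which 47 had a probeset of their own. Of these 47, 11 were above 100 (23.4%, against 22.9% of all genes), 28 were below (59.6%, against 65.0%) and 8 were neither. The median of the 47 means lay 0.75 below the limit (a difference of -0.75), close to the -0.76 of all genes. The other 8 of the 55 genes were not analysed here. Without replicate 1 the number above was 6, and without replicate 3 it was 7.

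All 3 measured genes of plasminogen receptors were above the limit, against 22.9% of all genes. Anxa2 and S100a10, which form the annexin A2 complex that binds Plat and plasminogen, had log2 signals of 9.31 in each sample (limma adjusted p = 1.68e-06) and of 10.56 ± 0.35 (SD, n = 3; limma adjusted p = 0.00428). The p of Anxa2 comes from equal values, and with the median SD of the other probesets it was 0.000489 (limma, adjusted). Plgrkt, a plasminogen receptor, had 8.11 ± 0.17 (limma adjusted p = 0.00686). Plasminogen itself, a liver product, was below 100, with Plg at 4.87 in each sample, and so were the inhibitor genes Serpinb2 (4.67) and A2m (4.93). Serpinf2, the gene of the plasmin inhibitor alpha 2-antiplasmin, had 6.85 ± 0.20 and was neither (limma adjusted p = 0.358, tested above 100). Of the 4 measured genes for plasminogen, its inhibitors and modifiers, 0 were above 100 by limma (0 at an unadjusted p under 0.05) and 3 were below. Over all genes 22.9% were above and 65.0% below, so 3 of 4 below is near the share of the array.

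Thrombin acts on cells through protease-activated receptors, and of those measured here F2r (PAR1) was the one above the limit. F2rl1 (PAR2) had no probeset of its own. Its log2 signals of 7.71, 7.82 and 7.62 in replicates 1, 2 and 3 averaged 7.72 ± 0.10 (SD, n = 3; limma adjusted p = 0.00461). F2rl2 (PAR3) was below at 5.02 ± 0.01 (limma adjusted p = 2.87e-06). F2rl3 (PAR4) had 6.23 ± 0.29 and was neither (limma adjusted p = 0.0789, tested below 100), and it was called below once equal-valued probesets took the median SD (adjusted p = 0.0425).

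Among 13 other genes listed with the anticoagulants of the wall or plasma, 4 were above 100, 6 were below and 3 were neither. That is 30.8% above and 46.2% below, against 22.9% and 65.0% of all genes. Not every gene of this list encodes an anticoagulant, and Gas6, counted among the 4, does not. Entpd1, the ectoenzyme CD39 that removes the platelet agonist ADP, was at 9.10 on the log2 scale in replicates 1 and 2 and at 8.20 in replicate 3, which average 8.80 ± 0.52 (SD, n = 3; limma adjusted p = 0.0291). Its partner Nt5e (CD73), which makes adenosine, had 6.67 in replicates 1 and 2 and 5.79 in replicate 3 and was neither (limma adjusted p = 0.309, tested below 100). Both of these genes had equal values in replicates 1 and 2 and were lower in replicate 3. Anxa5, which shields anionic phospholipid, had 11.06 ± 0.27 and Gas6, a vitamin K-dependent ligand, had 8.73 ± 0.16, both above. Sdc4, a heparan sulfate proteoglycan, was above at 7.47 ± 0.11, while Sdc1 had 6.30 ± 0.23 and was neither (limma adjusted p = 0.0696, tested below 100). Sdc1 was called below once equal-valued probesets took the median SD (adjusted p = 0.0421), which made 7 of the 13 genes below.

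Pros1, the gene of protein S, the cofactor of both activated protein C and Tfpi, had the widest spread of the 47 genes. Replicates 1, 2 and 3 had 7.70, 8.67 and 6.84 on the log2 scale, averaging 7.74 ± 0.91 (SD, n = 3; limma adjusted p = 0.281, tested above 100). All 3 samples were over the limit, but the range of 1.82 exceeded the gap between their average and that limit. Protein C itself, a plasma protein, was below 100, with Proc at 6.08 in each sample, as was antithrombin (Serpinc1) at 5.05. Tfpi2, a relative of Tfpi that inhibits plasmin, was below at 6.26 ± 0.12 (limma adjusted p = 0.0169), and so was Hs3st1, an enzyme that makes the antithrombin-binding form of heparan sulfate, at 5.49 ± 0.08 (limma adjusted p = 0.000676).

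The clotting factors of plasma, most of which the liver makes, were mostly below the limit in the sorted cells. Of 14 measured genes 13 were below 100 (92.9%, against 65.0% of all genes). Among these were F2 (prothrombin) at 4.21 ± 0.04 (SD, n = 3) and F5 (factor V) at 4.66 in each sample. The remaining gene was F13b, the carrier subunit of factor XIII, with log2 signals of 7.53, 7.53 and 7.50 that averaged 7.52 ± 0.02 (SD, n = 3; limma adjusted p = 0.000271). Its partner subunit F13a1 was below 100 at 5.01 in each sample. Ggcx and Vkorc1, the carboxylase and the reductase of the vitamin K cycle, had 6.16 in each sample, which was below, and 7.44 ± 0.44, which was neither (limma adjusted p = 0.14, tested above 100). Lrp1, a receptor that clears factor VIII and plasminogen activators, was below at 6.20 in each sample.

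**Figure D4:**
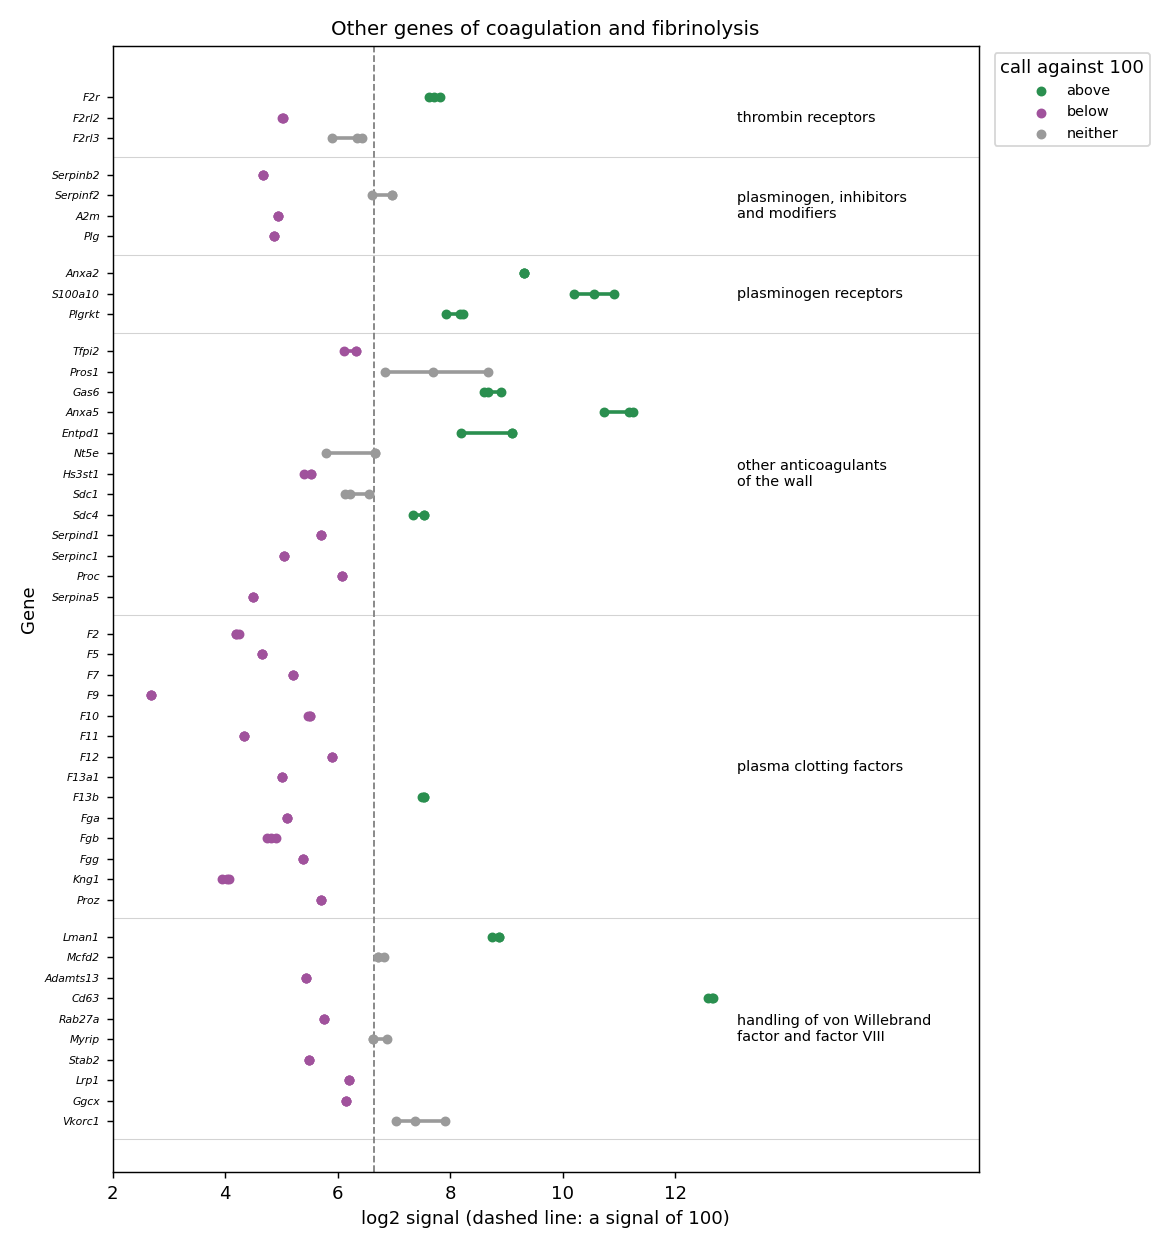
Log2 signal (horizontal axis) of the 47 measured genes of the wider pathway, grouped by list, with a point for each of the 3 samples joined by a line and coloured by the call against a signal of 100 (dashed line). The 3 plasminogen receptors lie above the line and 13 of 14 plasma clotting factors below it, and Pros1 has the longest line, at 1.82. Of all genes of the array 22.9% were called above and 65.0% below.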

How the data were processed

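RNA from 3 samples of sorted cells was amplified in 1 round and hybridized to Affymetrix Mouse Gene 1.0 ST arrays. The authors deposited log2 signals of 35557 probesets, already summarised per probeset and put on a common scale. The paper names RMA and GeneSpring, and the submitters' processing notes name Affymetrix Expression Console. Its version and the set of arrays scaled jointly are not stated in the sources used here. Scanner intensities were not used here, so background correction could not be varied. Median log2 signals were 5.70, 5.70 and 5.66, and Pearson's r across probesets was 0.941 to 0.950. Arrays have no read depth, and their number limits the precision.

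In the platform's annotation 21789 probesets had 1 gene, 1621 several and 12147 none. Genes were taken at their highest probeset. For every probeset, limma 3.58.1 (R 4.3.3) estimated the mean of log2 signal minus log2 of 100, with a variance trend (2 residual and 0.297 prior degrees of freedom). Means above and below were tested one-sided and adjusted by Benjamini-Hochberg across the whole array, with calls at an adjusted p under 0.05. Values equal in all 5 decimals made up 40.5% of probesets. The paper reports at least 3 independent biological samples for each cell type. Nothing states that the kidneys used here came from separate mice, so p-values measure the spread between these samples. Where the values were equal, they do not measure even that. The script was tested on simulated data whose SDs were drawn from probesets with unequal values. That test therefore did not cover probesets with equal values. The genes and lists were chosen with earlier results of these data known. Named genes were the 9 genes; in each pathway list those above 100, those with a range over 1, the first 2 below, and all where 5 or fewer made up a count; and the first 4 of each marker list. Not every gene of this rule is given. Alternatives were limits of 50 and 200, the sign in each sample with no test, quantile normalization, a median shift, no trend, the median SD for equal values, dim probesets left out, the lowest probeset, and leaving out each replicate. The figures were drawn with Python 3.11.15 and matplotlib 3.10.9.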

Additional observations from a re-analysis of the deposited data

How the results depend on the processing

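With a limit of 50, 8 of the 9 genes were above and 0 were below by limma (1 at an unadjusted p under 0.05), and 25 of the 47 other pathway genes were above and 19 below. Vwf then lay 0.82 above the limit on the log2 scale. With a limit of 200, 2 of the 9 genes were above and 4 below, and 6 of the 47 were above and 35 below. Tfpi, Plau and Plaur then lay on the other side of it, at -0.19, -0.22 and -0.92. Giving probesets with 3 equal values the median SD of the others left 1 of the 9 genes below. With dim probesets (mean log2 under 5) left out of the fit, 18 of the 47 genes were below in place of 28, since fewer genes were tested. Leaving out each replicate gave 3 to 4 of the 9 genes above and 2 below each time, and 6 to 11 of the 47 above and 27 to 29 below. Plaur ranged from -0.053 to 0.17 around the limit, the lowest without replicate 1. The fits then rested on 2 samples, and pairs of equal values gave small p-values. Quantile normalization, a median shift and no variance trend changed no call of the 9 genes. Taking the lowest probeset could not change one, since each of the 9 has 1 probeset. With a signal on one side of 100 in each sample and no test, the counts were 5 above and 2 below. No paired analysis was possible because there was 1 group. At 3 arrays, a gene within its own spread of the limit could not be called.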
